A study of Mus musculus with 7 samples.

Results

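The folate and thiopurine drug metabolism genes examined here were 9 genes chosen by symbol from the 24341 genes of the deposited expression table: the folate carrier Slc19a1, the polyglutamation genes Fpgs and Ggh, the folate enzymes Mthfd1, Shmt1 and Shmt2, and the thiopurine genes Hprt, Tpmt and Nt5c2. All 9 were listed once in the table. RNA-seq was performed on B cell precursor (BCP) cells of 7 Emu-Ret hemizygote mice on a BALB/c background, which carry an oncogenic Ret fusion gene driven by the enhancer of the immunoglobulin heavy chain locus. The transgene was present in both groups, and no transgene-negative or drug-treated sample was analysed here. The BCP cells were sorted by flow cytometry from spleen as BP-1 positive cells. For its in vitro studies, however, the paper states that leukemic spleen cells were in most cases not enriched. Its RNA-seq methods describe no sort or enrichment. The preleukemic group was 4 young mice that were healthy, and the leukemic group was 3 older mice that were moribund with overt disease, so age and disease state cannot be told apart. Each sample came from a separate mouse. Both sexes were used in the study, and the sex of each mouse was not among the sample labels used here.

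Folates enter cells mainly through the carrier SLC19A1, which also takes up the antifolate methotrexate. FPGS adds glutamates that hold folates and methotrexate inside the cell, and GGH removes them. SHMT and MTHFD enzymes load and interconvert the carbon units that purine and thymidylate synthesis consume. Thiopurines such as mercaptopurine are activated by HPRT, methylated and inactivated by TPMT, and their nucleotides are dephosphorylated by NT5C2. Both drug classes are mainstays of treatment of acute lymphoblastic leukemia. No drug response was measured in these samples, and the values below are RNA levels only.

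Levels are given as FPKM (fragments per kilobase of transcript, scaled to the fragments mapped in the sample), a unit per length that allows genes to be ranked within a sample. The 9 genes differed widely in level, though several of their ranges overlapped (plot of FPKM by sample). Hprt was the most abundant, with a mean of 141.0 FPKM over the 7 samples, which was above the mean of 97.9% of the genes in the table. Shmt2 followed at 82.6 FPKM and Mthfd1 at 39.1 FPKM. Hprt exceeded Shmt2, and Shmt2 exceeded Mthfd1, with no overlap between any of the 7 samples. Nt5c2 (32.8 FPKM), Shmt1 (28.5 FPKM), Slc19a1 (26.1 FPKM) and Fpgs (19.4 FPKM) came next, and the sample ranges of neighbours in this order overlapped, as did those of Mthfd1 and Nt5c2. Slc19a1 was nevertheless above Fpgs within each of the 7 samples. Ggh (1.11 FPKM) and Tpmt (0.398 FPKM) were far below the others. The lowest Fpgs value was 17.0 FPKM and the highest Ggh value was 2.11 FPKM. Ggh was above Tpmt within each of the 7 samples, but their ranges overlapped (lowest Ggh 0.731 FPKM, highest Tpmt 0.805 FPKM).

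**Figure D1:**
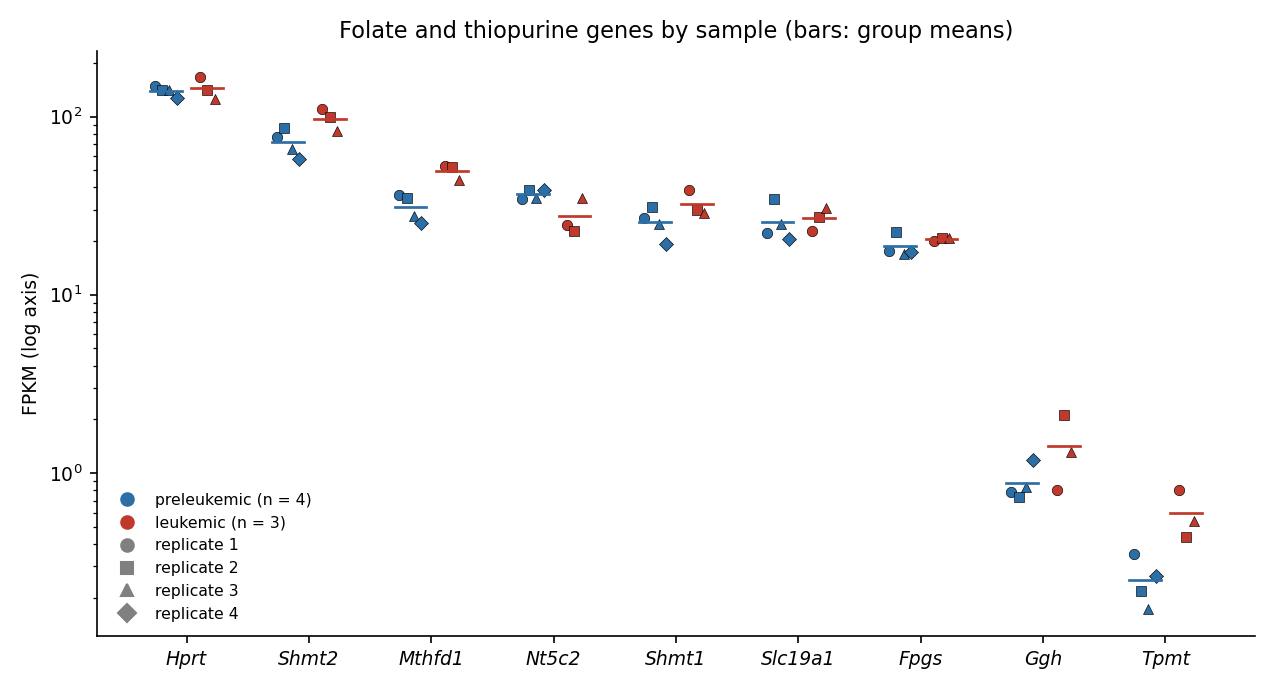
FPKM of the 9 genes (log axis) in 4 preleukemic samples (blue) and 3 leukemic samples (red), ordered by mean level, with marker shapes for replicates and bars for group means. The groups do not overlap for Mthfd1 (leukemic lowest 44.0 FPKM, preleukemic highest 36.3 FPKM) and Tpmt (0.436 and 0.351 FPKM), and they overlap for the other 7 genes.

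Depth was read from the steps between low FPKM values and came to 13800000 to 16500000 fragments per sample. The sort label was checked against marker genes. All 14 BCP markers examined were above the lowest value of the table, but their summed level was 3513 to 5368 FPKM in leukemic and 6523 to 8177 FPKM in preleukemic samples. Markers of red cells, macrophages, neutrophils and platelets were higher in the leukemic samples. The red cell markers summed to 5764 to 26548 FPKM against 423 to 2834 FPKM, with 14 of 15 above the preleukemic range in every leukemic sample and Hbb-bs at the lowest value in all samples. Macrophage markers summed to 170 to 402 against 39.6 to 91.5 FPKM (13 of 13 above), neutrophil markers to 1467 to 1825 against 153 to 893 FPKM (12 of 13), and platelet markers to 14.3 to 54.8 against 0.368 to 3.26 FPKM (8 of 8). Plasma cell markers summed to 208 to 254 against 140 to 150 FPKM, with 1 of 6 above the preleukemic range in every leukemic sample. T and NK cell markers overlapped, at 25.2 to 81.5 against 26.0 to 32.5 FPKM. In these bulk samples, fewer cells of a type and less RNA per cell cannot be told apart. The part of these other cells in the differences below was not tested, but each value was also computed with the red cell, macrophage, neutrophil and platelet lists left out of the sample total. This scaling moved the median difference of all genes tested by -0.11 on the log2 scale.

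Group differences were tested with limma on log2(FPKM + 1), with p-values adjusted by Benjamini-Hochberg over the 10541 genes that reached a total of 10 FPKM across all 7 samples. A difference is leukemic minus preleukemic, and a gene is called where the adjusted p is under 0.05. The added 1 makes folds of low genes too small. Of the 9 genes, 7 passed the filter, and 1 of these 7 was called. Of all genes tested, 14.7% were called (8.47% or 893 higher and 6.26% or 660 lower), so the share among the 7 was near the background. Under quantile normalization 754 were higher and 907 lower, and with the marker lists left out 724 were higher and 1758 lower. The median difference was 0.13 over the 7 genes and -0.02 over all genes tested (plot of differences). With the marker lists left out, the median was 0.02 over the 7 and -0.13 over all genes tested.

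**Figure D2:**
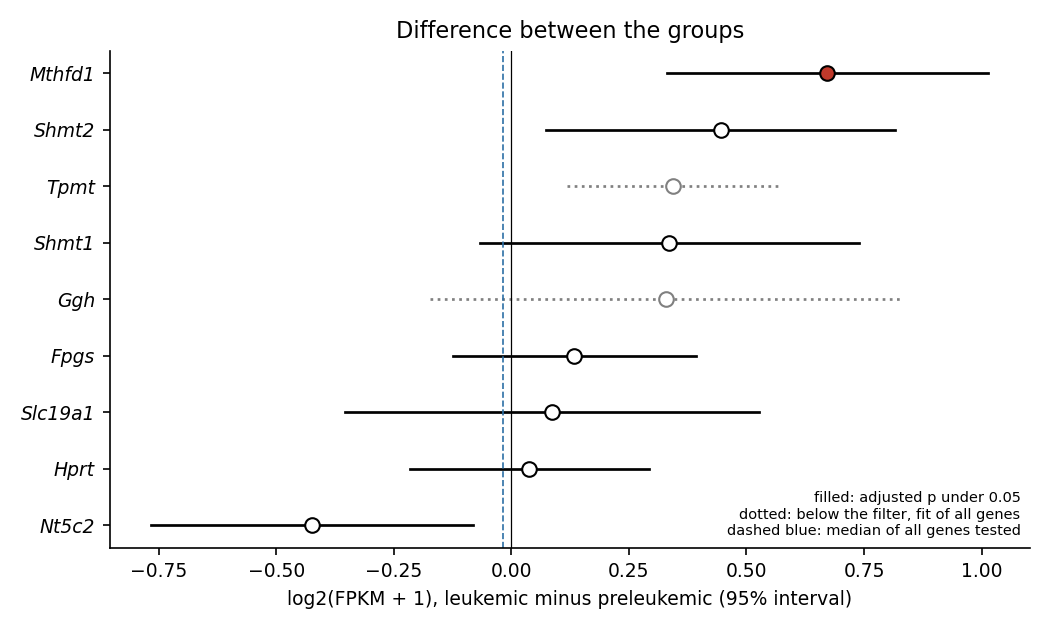
Difference in log2(FPKM + 1), leukemic minus preleukemic (3 and 4 samples), for the 9 genes, with 95% intervals from limma and a filled point where the adjusted p was under 0.05. Mthfd1 is the one filled point at 0.67, Nt5c2 lies lowest at -0.42, and the dotted intervals of Ggh and Tpmt come from the fit of all 24341 genes.

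The enzymes of folate metabolism were at higher mean levels in leukemic cells, and Mthfd1 was the one that passed the test. MTHFD1 is the cytosolic enzyme that interconverts folate forms and supplies formyl groups to purine synthesis. The gene is listed at chr12:76255232-76319820 (mm10). Its level was 53.0, 52.2 and 44.0 FPKM in leukemic replicates 1 to 3, and 36.3, 34.96, 27.6 and 25.4 FPKM in preleukemic replicates 1 to 4. Every leukemic sample lay above every preleukemic one, and 14.9% of the genes tested had this order. Mthfd1 rose from 31.1 ± 5.36 FPKM (SD, n = 4) to 49.7 ± 4.98 FPKM (SD, n = 3). The limma difference was 0.67 (SE 0.15), or 1.59-fold with a 95% interval of 1.26 to 2.02, with an adjusted p of 0.0274. The call was lost when any of 5 samples was left out: leukemic replicate 1 (adjusted p 0.0561) or 2 (0.0542), or preleukemic replicate 2 (0.0533), 3 (0.0801) or 4 (0.0764) in limma. It was also lost without the filter (adjusted p 0.0798 in limma), and it held with the marker lists left out (difference 0.55, adjusted p 0.0419). The median difference of the 308 genes tested on chromosome 12 with a mean of at least 5 FPKM was -0.08. All chromosome medians below, and the genes they are set against, have this same limit.

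SHMT2 is the mitochondrial enzyme that converts serine to glycine and charges folate with a carbon unit, and SHMT1 is its cytosolic counterpart. Shmt2 (chr10:127514939-127522444) stood at 109.6, 99.4 and 82.8 FPKM in the leukemic samples and at 76.8, 86.3, 65.5 and 57.6 FPKM in the preleukemic samples. Leukemic replicates 1 and 2 were above all preleukemic samples, and leukemic replicate 3 fell below preleukemic replicate 2. The group means were 97.3 ± 13.6 FPKM (SD, n = 3) and 71.5 ± 12.6 FPKM (SD, n = 4). The difference of 0.45 (SE 0.16) did not pass, with an adjusted p of 0.0978 in limma, although its own interval of 0.07 to 0.82 lay above 0.

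Shmt1 (chr11:60788897-60811265) was at 38.5, 29.9 and 28.7 FPKM in leukemic replicates 1 to 3. The preleukemic samples held 26.9, 31.1, 25.0 and 19.4 FPKM. Here leukemic replicate 1 alone was above the preleukemic range. The means were 32.4 ± 5.38 FPKM (SD, n = 3) and 25.6 ± 4.86 FPKM (SD, n = 4), a difference of 0.34 (SE 0.17) that did not pass (adjusted p 0.21 in limma, interval -0.07 to 0.74). An exon of Shmt1 shares 184 bases with Smcr8 on the opposite strand, which was at 10.2 to 15.9 FPKM. The library kit keeps strand, but whether the counting used it is not given in the sources used here.

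The profiles of the 3 folate enzymes were compared with each other and with other genes. Each profile is a gene's log2(FPKM + 1) in the 7 samples less its own mean, and likeness is the root mean square difference of 2 profiles. Among the 9 genes, Shmt1 and Shmt2 were the closest pair at 0.0973 log2 units, and Mthfd1 and Shmt2 came next at 0.134. Mthfd1 and Shmt1 were further apart at 0.211, behind pairs such as Slc19a1 and Fpgs (0.151) and Tpmt and Hprt (0.182). All 3 were lowest in preleukemic replicate 4 and highest in leukemic replicate 1. By the same measure over genes with a mean of at least 5 FPKM, Shmt2 was nearest to Nhp2 (0.0453) and Psmg1 (0.0637), Shmt1 to Fam162a (0.0732) and Agpat5 (0.0757), and Mthfd1 to Scarb1 (0.102) and Pabpc4 (0.111). These are descriptions over 7 samples that also differ in disease state.

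The promoters of these 3 genes are shown because Mthfd1 was the called gene and Shmt1 and Shmt2 had the closest profiles. RefSeq promoters (GRCm38.p6) matched 8 of the 9 symbols. Each stretch is the 150 bases just before the RefSeq start, 5′ to 3′ on the gene's strand. Capitals mark matches on either strand to GGGCGG (the GC box), CCAAT (the CCAAT box), CACGTG (the E-box) or GCATGC (the centre of the NRF1 motif). Overlapping matches were counted separately.
Mthfd1, chr12:76255082-76255231, plus strand: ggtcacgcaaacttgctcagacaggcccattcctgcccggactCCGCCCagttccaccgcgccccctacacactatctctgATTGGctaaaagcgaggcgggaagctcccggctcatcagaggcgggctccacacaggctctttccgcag
Shmt2, chr10:127522445-127522594, minus strand: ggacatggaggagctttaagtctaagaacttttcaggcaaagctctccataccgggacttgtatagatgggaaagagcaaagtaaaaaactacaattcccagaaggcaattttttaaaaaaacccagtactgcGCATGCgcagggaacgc
Shmt1, chr11:60811266-60811415, minus strand: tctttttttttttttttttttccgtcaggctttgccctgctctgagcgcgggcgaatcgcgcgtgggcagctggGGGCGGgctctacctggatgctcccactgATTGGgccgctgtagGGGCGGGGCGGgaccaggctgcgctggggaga

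The Mthfd1 stretch held 1 GC box and 1 CCAAT box, the latter beginning 69 bases before the start. The Shmt1 stretch held 3 GC boxes and 1 CCAAT box, which began 47 bases before the start. The Shmt2 stretch held neither, and had 1 match to GCATGC beginning 17 bases before the start. CACGTG was in none of the 3 stretches. Of all 32851 RefSeq promoter stretches of this length, 28.6% held GGGCGG, 24.5% held CCAAT, 4.47% held GCATGC and 4.3% held CACGTG. The matches are descriptions of the letters, and all 150 bases of the Mthfd1 stretch lie in an exon of the noncoding gene Gm47525 on the other strand.

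The differences of the folate uptake and retention genes were within the spread of the replicates. Slc19a1 encodes the reduced folate carrier and is listed at chr10:77032739-77050432. It was at 22.7, 27.1 and 30.6 FPKM in leukemic samples and 22.1, 34.7, 24.9 and 20.5 FPKM in preleukemic samples. The highest and lowest values were both preleukemic (replicates 2 and 4). The difference was 0.09 (SE 0.19, interval -0.35 to 0.53, adjusted p 0.77 in limma), and it was -0.03 with the marker lists left out.

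Fpgs, the gene of folylpolyglutamate synthase, was at 19.9, 20.7 and 20.8 FPKM in leukemic samples and 17.7, 22.6, 17.0 and 17.4 FPKM in preleukemic samples. The leukemic values lay close together, above 3 preleukemic samples and below preleukemic replicate 2. The difference was 0.13 (SE 0.11, interval -0.12 to 0.39, adjusted p 0.413 in limma). The listed locus, chr2:32646595-32694175, also spans Eng on the opposite strand, which was at 45.7 to 75.0 FPKM and shares 61 exonic bases with Fpgs.

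Ggh encodes gamma-glutamyl hydrolase, the enzyme that opposes FPGS, and is listed at chr4:20042052-20066111. Its level was 0.807, 2.11 and 1.31 FPKM in leukemic and 0.782, 0.731, 0.839 and 1.18 FPKM in preleukemic samples. At the length of its 1 annotated transcript this was 18.6 to 57.5 fragments, so counting error weighs on each value. Leukemic replicates 2 and 3 were above the preleukemic range, and leukemic replicate 1 was inside it. Ggh did not pass the filter, and in the fit of all genes its difference was 0.33 (SE 0.20, interval -0.17 to 0.83, adjusted p 0.487 in limma).

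Of the thiopurine genes, Hprt had a group difference close to 0, Nt5c2 had a lower mean in leukemic samples and Tpmt a higher one, and none passed. Hprt encodes the salvage enzyme that converts mercaptopurine to its active nucleotide (chrX:52988078-53021660). Its level was 165.9, 140.1 and 124.9 FPKM in leukemic and 147.5, 140.5, 140.6 and 127.8 FPKM in preleukemic samples. The leukemic samples held both the highest and the lowest value. The difference was 0.04 (SE 0.11, adjusted p 0.827 in limma), with an interval of -0.22 to 0.29, and its sign turned under quantile normalization (-0.06) and with the marker lists left out (-0.08).

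NT5C2 is a cytosolic nucleotidase that acts on inosine and guanosine monophosphates and on thiopurine nucleotides. Nt5c2 (chr19:46886831-47024346) was at 24.8, 22.8 and 34.9 FPKM in leukemic replicates 1 to 3 and at 34.4, 38.7, 35.05 and 38.6 FPKM in preleukemic replicates 1 to 4. Leukemic replicates 1 and 2 were below every preleukemic sample, and leukemic replicate 3 was inside the preleukemic range. The means were 27.5 ± 6.49 FPKM (SD, n = 3) and 36.7 ± 2.30 FPKM (SD, n = 4). The difference of -0.42 (SE 0.15, interval -0.77 to -0.08) did not pass (adjusted p 0.0912 in limma). It was -0.60 without leukemic replicate 3 (adjusted p 0.0243 in limma) and -0.54 with the marker lists left out (adjusted p 0.0445 in limma), and it passed in both. The genes nearest to the Nt5c2 profile were Baz2b (0.047) and Sh2b3 (0.0533).

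TPMT methylates thiopurines, which removes them from activation. Tpmt (chr13:47023543-47043217) was the lowest of the 9 genes, at 0.805, 0.436 and 0.541 FPKM in leukemic and 0.351, 0.218, 0.172 and 0.262 FPKM in preleukemic samples. The leukemic samples were all above the preleukemic ones, as they were for 14.9% of the 16676 genes above the lowest value in any sample. At the length of its longest coding transcript the values stand for 5.96 to 30.9 fragments. Tpmt did not pass the filter, and in the fit of all genes its difference was 0.34 (SE 0.09, adjusted p 0.107 in limma), where 2.90% of 24341 genes were called. The pseudogene Gm18807 shares 641 exonic bases with Tpmt on the opposite strand.

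The remaining profiles were nearest to genes of other functions. Slc19a1 was nearest to Pusl1 (0.0762) and Slc25a22 (0.0774), Fpgs to Nifk (0.0287) and Mphosph10 (0.043), and Ggh to Ftl1 (0.0792) and Add1 (0.0908). Tpmt was nearest to Rpl23 (0.0417) and Zfp862-ps (0.0431), and Hprt to Naa50 (0.0249) and Jade3 (0.0276). Flat profiles have many near neighbours: 368 genes were within 0.1 of Hprt, 136 within 0.1 of Tpmt and also of Fpgs, 6 within 0.1 of Slc19a1, and 0 within 0.1 of Mthfd1. The added 1 flattens the profiles of the low genes Tpmt and Ggh, and counting error weighs on them.

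Opposing steps were compared as ratios within a sample, each the difference of 2 log2(FPKM + 1) values (plot of ratios). Adding glutamates was set against removing them (Fpgs to Ggh), the mitochondrial against the cytosolic enzyme (Shmt2 to Shmt1), and activation against each inactivating step (Hprt to Tpmt and Hprt to Nt5c2). With 3 and 4 samples the smallest p of the exact permutation test is 0.0286, which becomes 0.114 after adjustment over 4 ratios where 1 ratio alone reaches it, so no single ratio could pass on its own. None of the 4 passed. Hprt to Tpmt was 6.50 ± 0.14 in leukemic (SD, n = 3) and 6.81 ± 0.11 in preleukemic samples (SD, n = 4; two-sided exact permutation p = 0.0571, adjusted 0.229), and the groups did not overlap. Tpmt was under 1 FPKM, so the added 1 set much of this value: the difference was -0.31 here and -0.94 with 0.1 added. The plain ratio of Hprt to Tpmt FPKM was 206 to 321 in leukemic and 421 to 816 in preleukemic samples. Hprt to Nt5c2 was 2.36 ± 0.48 and 1.89 ± 0.16 (exact permutation p = 0.171, adjusted 0.267), with leukemic replicates 1 and 2 above and replicate 3 inside the preleukemic range. Shmt2 to Shmt1 differed by 0.11 (exact permutation p = 0.2, adjusted 0.267), and Fpgs to Ggh by -0.19 (exact permutation p = 0.457, adjusted 0.457), or -0.41 with 0.1 added.

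**Figure D3:**
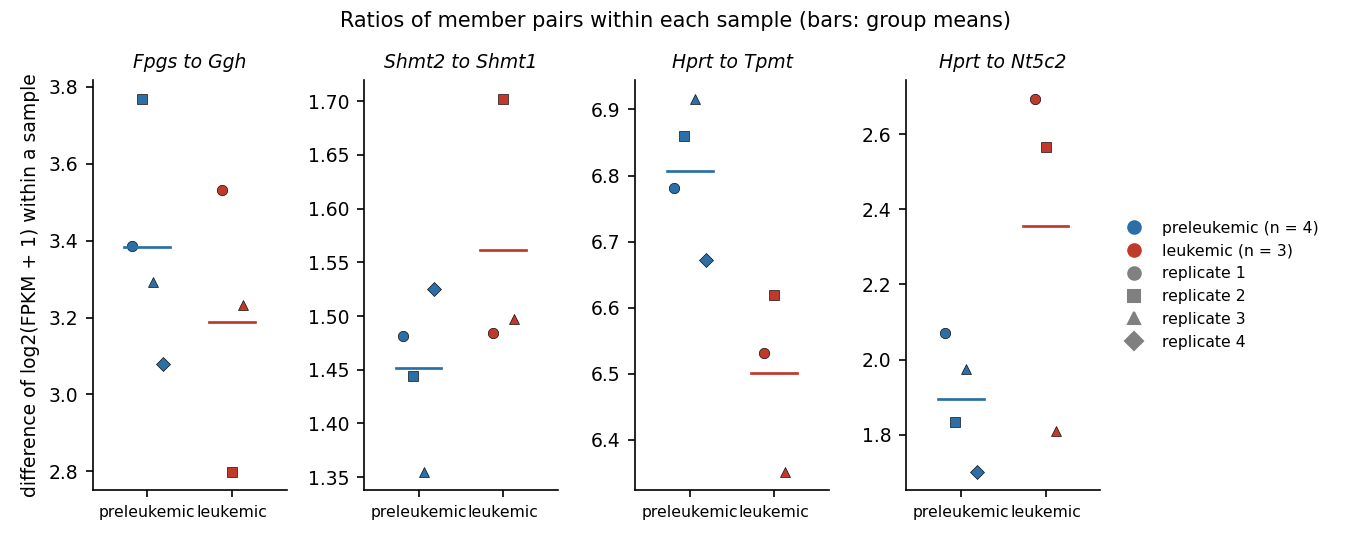
Within-sample difference of log2(FPKM + 1) for 4 pairs of genes in preleukemic (blue, n = 4) and leukemic (red, n = 3) samples, with bars for group means and separate vertical scales that do not start at 0. The groups are apart only for Hprt to Tpmt (leukemic mean 6.50, preleukemic mean 6.81).

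The genes around the 9 were taken from 5 fixed lists with 79 genes, of which 63 passed the filter and 10 were called, 7 higher and 3 lower (plot of pathway lists). This share was near the 14.7% of all genes tested, and 8.47% of all were higher and 6.26% lower. The list medians were above the -0.02 of all genes in each case. With the marker lists left out, the median of all genes was -0.13, and each list median was again above it. Among the 16 other folate enzymes tested, 0 rose and 1 fell, with a list median of 0.13, or 0.01 with the marker lists left out. The gene that fell was Aldh1l1, whose enzyme oxidises formyl-tetrahydrofolate. Aldh1l1 was at 0.0906, 3.38 and 0.129 FPKM in leukemic and 4.63 to 5.22 FPKM in preleukemic samples, so leukemic replicate 2 was far above the other two. All leukemic samples were below the preleukemic range, an order found for 17.1% of the genes tested. Its difference was -1.77 (SE 0.47, adjusted p 0.0469 in limma), and the call was lost when any sample other than leukemic replicate 2 was left out (adjusted p up to 0.119 in limma). The most abundant genes of the list, Psat1 of serine synthesis (0.30, adjusted p 0.231 in limma) and Dld of the glycine cleavage system (0.02, adjusted p 0.873 in limma), did not pass.

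Of 6 folate and antifolate transport genes tested, 1 rose and 0 fell, with a median of 0.16 (0.05 with the marker lists left out). Abcc4, an exporter of methotrexate and thiopurine nucleotides, was at 1.38, 4.07 and 4.72 FPKM in leukemic and 0.691 to 0.886 FPKM in preleukemic samples. Every leukemic sample was above the preleukemic range, as for 14.9% of the genes tested. The difference was 1.19 (SE 0.32, adjusted p 0.0465 in limma), a call lost without any one sample except leukemic replicate 1 (adjusted p up to 0.116 in limma) and under quantile normalization (0.0539). The exporter Abcg2 (0.86, adjusted p 0.0626 in limma, or 1.12 and 0.023 without leukemic replicate 1) and the serine carrier Sfxn1 (0.03, adjusted p 0.861 in limma), the most abundant of this list, did not pass. Abcg2 was at 19.5, 42.8 and 27.0 FPKM in leukemic replicates 1 to 3. The summed red cell markers had the same order (5764, 26548 and 12952 FPKM), and their part in the Abcg2 difference was not tested.

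In purine synthesis and salvage, 2 of 17 genes tested rose and 2 fell, with a median of 0.21 (0.09 with the marker lists left out). The 2 inosine monophosphate dehydrogenase genes moved in opposite directions. IMPDH is the enzyme that commits inosine monophosphate, and also the thiopurine nucleotide made by HPRT, to the guanine branch. Impdh2 was at 198.0, 127.9 and 128.6 FPKM in leukemic and 73.5 to 86.2 FPKM in preleukemic samples, a difference of 0.88 (SE 0.16, adjusted p 0.0189 in limma). Impdh1 was at 119.1, 89.7 and 70.7 FPKM in leukemic and 147.1 to 190.4 FPKM in preleukemic samples, a difference of -0.87 (SE 0.18, adjusted p 0.0229 in limma). Neither gene had overlapping groups. Of the genes tested, 14.9% had all leukemic samples above the preleukemic range and 17.1% had all below. Impdh1 was the more abundant of the pair in all preleukemic samples and Impdh2 in all leukemic samples (plot of called genes).

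Impdh2 lies on chromosome 9, whose 495 tested genes with a mean of at least 5 FPKM had a median difference of 0.23. Relative to all genes, the chromosome 9 median was 0.33, 0.28 and 0.10 in leukemic replicates 1 to 3 and -0.06 to 0.12 in preleukemic samples. The part of the chromosome in the Impdh2 difference was not tested. The calls of Impdh2 and Impdh1 were lost without preleukemic replicates 2, 3 or 4, and that of Impdh1 also without preleukemic replicate 1 (adjusted p 0.0522 to 0.0781 over these fits in limma), but the direction of both was kept in all 13 alternatives.

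Adk, which phosphorylates adenosine, rose from 35.1 to 49.1 FPKM in preleukemic samples to 90.7, 68.7 and 72.6 FPKM in leukemic replicates 1 to 3 (0.89, SE 0.14, adjusted p 0.0138 in limma). Of the leave-out fits, the one without preleukemic replicate 4 lost the call (adjusted p 0.0535 in limma). Adssl1, an adenylosuccinate synthase, fell to 12.2, 5.95 and 9.12 FPKM from 17.2 to 26.4 FPKM (-1.08, SE 0.24, adjusted p 0.0282 in limma), and 5 of the 7 leave-out fits lost it: those without leukemic replicate 3 or any preleukemic sample (adjusted p 0.0562 to 0.0804 in limma). The most abundant genes of the list, Pnp (0.48, adjusted p 0.54 in limma) and Paics (0.35, adjusted p 0.176 in limma), did not pass. Pnp ranged from 61.2 to 341.3 FPKM among the leukemic samples alone and passed without leukemic replicate 2 (1.19, adjusted p 0.021 in limma), and the table gives Paics the same locus as its neighbour Ppat.

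Of 9 genes tested for thiopurine inactivation, nucleotidases and nucleoside transport, 3 rose and 0 fell, with a median of 0.20 (0.08 with the marker lists left out). With the marker lists left out, and also under quantile normalization, 1 gene was called lower: Slc28a2, a nucleoside transporter named here after its values were seen. Slc28a2 was at 1.04, 4.41 and 4.796 FPKM in leukemic and 7.38 to 8.93 FPKM in preleukemic samples. Its difference of -1.20 missed the threshold (adjusted p 0.0601 in limma), against adjusted p 0.0364 and 0.0414 in those 2 fits. Slc29a1, the equilibrative nucleoside transporter, was at 111.7, 82.8 and 84.8 FPKM in leukemic and 41.4 to 54.2 FPKM in preleukemic samples (0.90, SE 0.14, adjusted p 0.0134 in limma). Xdh, the gene of xanthine dehydrogenase, which oxidises mercaptopurine, was at 2.86, 2.56 and 4.57 FPKM against 0.653 to 1.03 FPKM (1.2, SE 0.22, adjusted p 0.0172 in limma). Nt5c3, a pyrimidine nucleotidase, was at 49.9, 120.3 and 76.6 FPKM against 30.9 to 43.4 FPKM (1.08, SE 0.27, adjusted p 0.0409 in limma). All 3 lay above the preleukemic range in every leukemic sample, an order found for 14.9% of the genes tested. Without preleukemic replicate 4 all 3 calls were lost (adjusted p 0.0512 for Slc29a1, 0.0627 for Xdh and 0.118 for Nt5c3 in limma). Xdh was also lost without preleukemic replicate 3 (0.0553 in limma), and Nt5c3 without leukemic replicate 3 or any preleukemic replicate. Nt5c3 was highest in leukemic replicate 2 and preleukemic replicate 1 of each group, as were the summed red cell markers (26548 and 2834 FPKM). The part of red cells in the Nt5c3 difference was not tested. Nt5c, an abundant nucleotidase at 80.4 FPKM, did not pass (0.20, adjusted p 0.256 in limma), but it passed without leukemic replicate 1 (0.34, adjusted p 0.0323 in limma).

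**Figure D4:**
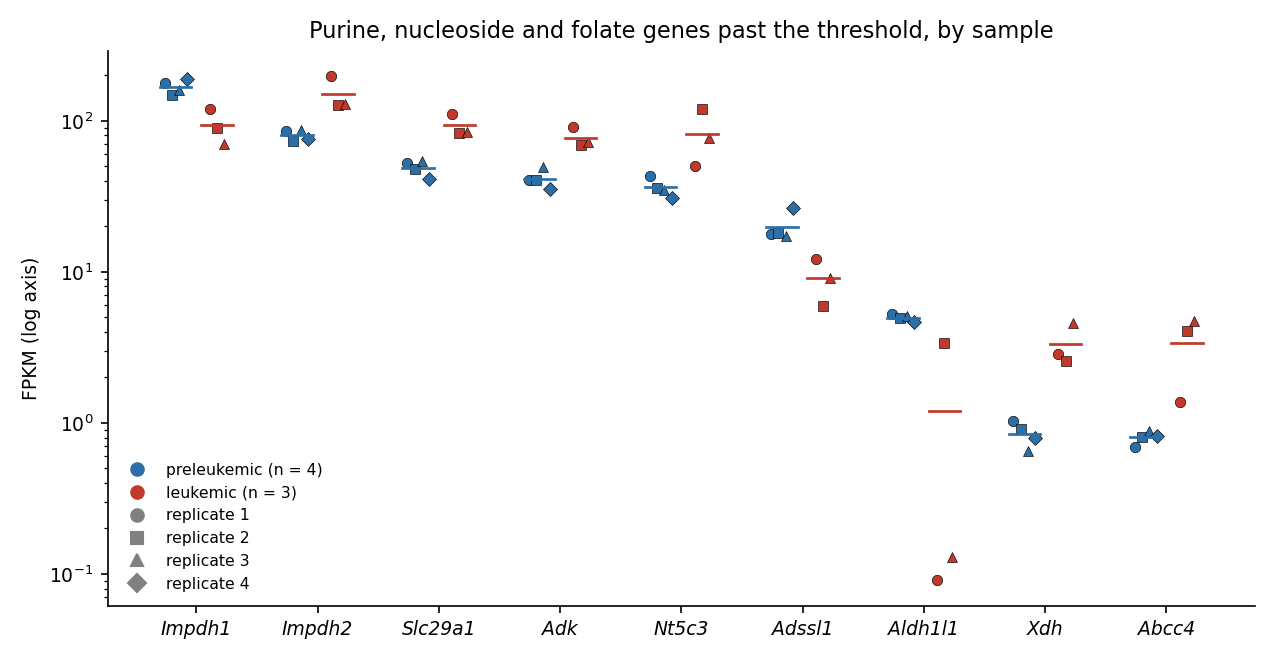
FPKM (log axis) of 9 called genes of the folate, transport, purine and thiopurine lists in preleukemic (blue, n = 4) and leukemic (red, n = 3) samples, with bars for group means. Impdh2 is higher and Impdh1 lower in the leukemic samples, and Aldh1l1 is lowest in leukemic replicates 1 and 3.

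Slc29a1 and Xdh lie on chromosome 17. The 494 genes tested on this chromosome with a mean of at least 5 FPKM had a median difference of 0.35. Relative to all genes with such a mean, their median was 0.37, 0.37 and 0.40 in leukemic replicates 1 to 3 and -0.06 to 0.13 in preleukemic samples. The differences of Slc29a1 (0.90) and Xdh (1.2) were above the median difference of 0.35, and the part of the chromosome in them was not tested. Adk and Abcc4 lie on chromosome 14, whose 305 genes with such a mean had a median difference of -0.04. Relative to all genes, its median was 0.15 in leukemic replicate 3, 0.17 in preleukemic replicate 3 and below 0 in the other samples. Its part in the Adk and Abcc4 differences was not tested. None of the 9 folate and thiopurine genes lies on chromosome 9 or 17, and the medians of the chromosomes that hold them were between -0.08 and -0.03. The 4 chromosome Y genes with a mean of at least 5 FPKM had a median difference of 1.67. The part of sex in the differences was not tested.

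**Figure D5:**
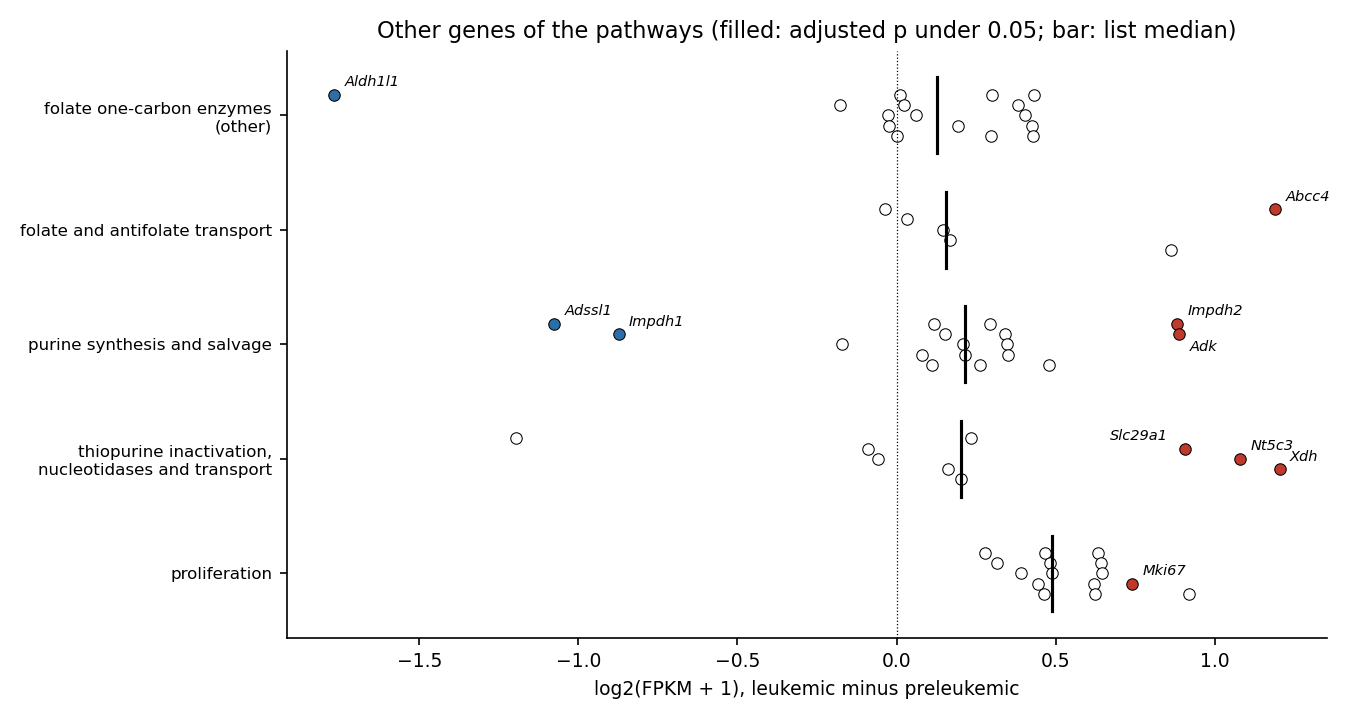
Difference in log2(FPKM + 1), leukemic minus preleukemic, of each of the 63 genes tested in 5 lists, with vertical bars at list medians and filled points where the adjusted p was under 0.05 (red higher, blue lower). The 15 proliferation genes all lie above 0 with a median of 0.49, and purine synthesis and salvage holds calls in both directions.

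Proliferation markers were compared because folate enzymes serve DNA synthesis. All 15 proliferation genes tested had a difference above 0 under each scaling, with a median of 0.49 (0.37 with the marker lists left out), but only Mki67 was called (0.74, SE 0.17, adjusted p 0.0316 in limma) and 0 fell. That call was lost in 5 of the 7 leave-out fits, those without leukemic replicate 1 or 2 or preleukemic replicate 2, 3 or 4 (adjusted p up to 0.0944 in limma). Top2a (0.28, adjusted p 0.463 in limma) and Pcna (0.32, adjusted p 0.271 in limma) did not pass. The summed level of the 15 was 1713 to 2790 FPKM in leukemic and 1122 to 1893 FPKM in preleukemic samples, highest in leukemic replicate 1, where Mthfd1, Shmt1 and Shmt2 were also highest. Its part in the Mthfd1 difference was not tested.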

How the data were processed

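RNA-seq of sorted spleen BCP cells gave 1 table with 7 sample columns, each matched by name to its label (0 columns belonged to other samples). The authors deposited FPKM per gene and sample. The submitters' processing notes name mm10, STAR 2.5.0b, Cufflinks 2.2.1, bedtools 2.17.0, Bowtie and DESeq2, with no role given, and the study's methods name DESeq2 on counts with a filter on sums under 10. FPKM are not counts, so differences were tested with limma 3.58.1 (R 4.3.3, intensity trend, no covariates) on log2(FPKM + 1), after a filter on an FPKM sum of at least 10 over the 7 samples. P-values were adjusted by Benjamini-Hochberg over all genes tested, with a threshold of 0.05. The fit was tested on simulated data. The lowest listed value was 0.01, held by 7665 genes in all samples.

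Depth was read from single-transcript genes, where 75.0 to 80.1% of low values lay within 0.1 of a whole fragment, against 20% by chance. Fragment numbers cover counting error only. FPKM summed to 507355 to 539887 in leukemic and 448022 to 471447 in preleukemic samples. Positions are those listed, with starts counted from 1. Symbols were found in RefSeq for 95.1% of genes, and gene models were from GENCODE. Ratios were compared with exact permutation tests over the 35 arrangements of the samples in SciPy 1.17.1, adjusted over 4. Figures used Matplotlib 3.10.9.

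The 9 genes and the lists were chosen with earlier results of these data known. A further pathway list is not reported here. By rule, the text names the 9 genes, in each pathway list every called gene (up to 3 in each direction) and the 2 most abundant, and for each of the 9 the 2 genes of nearest profile with a mean of at least 5 FPKM. Alternatives were a pseudocount of 0.1, no filter, a sum of at least 70, quantile normalization, a sample total without red cell, macrophage, neutrophil and platelet markers, the replicate number as a block, and leaving out each sample.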

Additional observations from a re-analysis of the deposited data

Results flagged for a closer look

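In the 4 preleukemic samples, 32 gene levels were examined for a value far from the other 3, and 2 were found, which is about the 1 in 20 that chance gives. Fpgs was at 22.6 FPKM in preleukemic replicate 2, against 17.0 to 17.7 FPKM in the other preleukemic samples. Adssl1 was at 26.4 FPKM in preleukemic replicate 4, against 17.2 to 18.0 FPKM in the others.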

How the results depend on the processing

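Of the 7 genes tested, the number called was 1. It was 0 without the filter, 2 with the marker lists left out of the total and 0 to 2 when a sample was left out. Without the filter, 4 of the 9 had an unadjusted p under 0.05 in limma, as did 4932 of all 24341 genes. Of these 24341 genes, 7665 were at the lowest value in all samples. Among all genes, 1553 were called, against 951 with a sum of at least 70, 706 without the filter, 2482 with the marker lists left out and 149 to 1620 when a sample was left out. In the pathway lists 10 were called, against 3 without the filter and 0 to 11 when a sample was left out. Without the filter, which adds many low genes to the adjustment, the calls of Mthfd1, Aldh1l1, Abcc4, Impdh1, Impdh2, Adssl1, Nt5c3 and Mki67 were lost. A pseudocount of 0.1 ended the Aldh1l1 call (adjusted p 0.0612 in limma). Genes with small differences changed sign: Slc19a1 to -0.032 with the marker lists left out (-0.0099 to 0.24 without 1 sample), Hprt to -0.062 under quantile normalization and -0.084 with the marker lists left out (-0.070 to 0.13 without 1 sample), and Dld to -0.045 and -0.099 (-0.034 to 0.10). Sfxn1 went to -0.031 under quantile normalization and -0.088 with the marker lists left out (-0.093 to 0.14 without 1 sample). Without 1 sample, Pnp ranged from -0.038 to 1.19, Top2a from -0.014 to 0.47, and the Fpgs to Ggh ratio from -0.37 to 0.00063. Leaving the marker lists out of the total scales all genes of a sample by the same factor. It moved the median difference of all genes tested by -0.11, and quantile normalization moved it by -0.04. The cause of the other changes was not tested.

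The groups share replicate numbers, but same-numbered samples did not deviate together (correlations 0.03, 0.05 and -0.09), so the samples share only a number. With the replicate block, which drops preleukemic replicate 4, limma called 0 genes among the 7, in the lists and in the whole table, while an unadjusted p under 0.05 was held by 2, 19 and 2416 of them. Slc19a1 was at -0.0058 and Hprt at -0.0017 in that fit.

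With 3 and 4 samples, differences inside the intervals given could not be told from the spread, and Ggh and Tpmt were too low to test with the filter.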

Other observations

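The highest or lowest sample of a group was shared by several of the 9 genes. How often the same samples were highest or lowest over all genes was not computed. Preleukemic replicate 2 was the highest of its group for 5 of the 9 genes (Slc19a1, Fpgs, Shmt1, Shmt2 and Nt5c2) and had the lowest summed level of the 15 proliferation genes, at 1122 FPKM against 1464 to 1893 FPKM in the other preleukemic samples. Preleukemic replicate 4 was the lowest of its group for 5 genes (Slc19a1, Mthfd1, Shmt1, Shmt2 and Hprt), and leukemic replicate 1 the highest of its group for 5 (Mthfd1, Shmt1, Shmt2, Tpmt and Hprt). In leukemic replicate 3, Nt5c2, which lies on chromosome 19, was at 34.9 FPKM, near the preleukemic mean of 36.7 FPKM. Separately, the chromosome 14 median was 0.15 above all genes in leukemic replicate 3 and 0.17 above in preleukemic replicate 3.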
